A study of Mus musculus with 12 samples.

Results

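The 7 genes described here encode the Fos and Jun subunits of activator protein 1 (AP-1) in the mouse, namely Fos, Fosb, Fosl1, Fosl2, Jun, Junb and Jund. They were taken from the deposited isoform table by gene name, which gave 7 of its 28852 genes and 19 of its 84846 isoform rows. The cells were bone marrow-derived mast cells (BMMCs) of BALB/c mice grown with IL-3 and SCF, and polyadenylated RNA was sequenced from 4 groups of 3 libraries. These were cells given DNP-HSA and SiO2 nanoparticles together (DNP-HSA+SiO2), DNP-HSA alone, SiO2 nanoparticles alone, and blank control cells. DNP-HSA is a hapten-coupled albumin used to cross-link the high-affinity IgE receptor FcεRI through anti-DNP IgE. The paper's text names neither dose nor time in this experiment, and does not mention whether the sequenced cells were sensitized with IgE, so the groups are described by these names alone. In each group 1 library carried no number and the others were numbered 1 and 2, and no label says what a number marks or that the libraries came from separate cultures. The p-values therefore measure the spread between these libraries, which may be technical.

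AP-1 is a dimer of basic leucine zipper proteins that binds the TRE (TGACTCA) and CRE (TGACGTCA) DNA elements. Fos proteins bind DNA with a partner such as a Jun protein, whereas Jun proteins can also pair among themselves. Most of these genes are immediate early genes, transcribed soon after a stimulus through kinases that act on factors already in the cell. In mast cells, cross-linking of FcεRI is a classical trigger of this response, and AP-1 takes part in the transcription of cytokine genes.

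The libraries held between 55737606 and 76718065 estimated counts each. Levels are given as CPM, the count relative to a TMM-scaled library size, and suit comparison between libraries. FPKM, which is per length of transcript, is used where genes are compared with each other. All 10 mast cell markers checked were present, with a summed FPKM of 20868.3 to 21515.2 in the 4 unnumbered libraries and 23534.5 to 30220.4 in the numbered ones. The unnumbered libraries also stood apart in markers of other cells. Basophil markers (both of 2 detected) summed to 21.2 to 24.7 FPKM in the 4 unnumbered libraries and 0.9 to 6.6 FPKM in the numbered ones. The 8 markers of macrophages, monocytes and neutrophils summed to 8.6 to 9.8 FPKM in the unnumbered libraries, with 3 of them at 0 there, and to 19.0 to 116.1 FPKM in the numbered ones. Of T and B cell markers, 2 of 3 were in the table and summed to at most 3.3 FPKM. Each group holds 1 unnumbered library, and the part of these cells in the results was not tested.

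The promoters are shown because the mean levels of all 7 genes in each treatment lay above blank. The 250 bases before the start site were read from RefSeq (GRCm38.p6), in which 6 of the 7 genes matched. The windows of Fosl2 and Jund are not shown because their RefSeq start sites lie 671 and 1210 bases from the first base of the listed isoform. Capitals mark TGACG (the CRE half-site, also contained in TGACGTCA), TGACATCA (a TRE-like element) and TATAAA (the TATA box), searched on both strands. The windows are Fos at chr12:85473640-85473889 on the plus strand, and Fosb at chr7:19310046-19310295, Jun at chr4:95052223-95052472 and Junb at chr8:84978749-84978998 on the minus strand.
Fos promoter: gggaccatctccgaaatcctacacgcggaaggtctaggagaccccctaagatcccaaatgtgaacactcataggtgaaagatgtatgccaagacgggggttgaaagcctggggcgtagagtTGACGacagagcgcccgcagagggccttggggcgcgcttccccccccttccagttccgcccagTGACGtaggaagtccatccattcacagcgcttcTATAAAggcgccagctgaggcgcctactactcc
Fosb promoter: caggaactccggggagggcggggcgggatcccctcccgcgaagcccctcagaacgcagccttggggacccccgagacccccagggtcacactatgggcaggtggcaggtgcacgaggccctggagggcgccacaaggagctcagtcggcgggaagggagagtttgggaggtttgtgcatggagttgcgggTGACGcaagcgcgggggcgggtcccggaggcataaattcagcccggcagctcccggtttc
Jun promoter: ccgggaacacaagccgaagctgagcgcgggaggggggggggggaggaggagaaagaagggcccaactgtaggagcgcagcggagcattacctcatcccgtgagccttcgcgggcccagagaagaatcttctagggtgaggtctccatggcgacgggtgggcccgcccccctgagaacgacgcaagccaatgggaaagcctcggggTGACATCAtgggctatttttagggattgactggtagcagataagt
Junb promoter: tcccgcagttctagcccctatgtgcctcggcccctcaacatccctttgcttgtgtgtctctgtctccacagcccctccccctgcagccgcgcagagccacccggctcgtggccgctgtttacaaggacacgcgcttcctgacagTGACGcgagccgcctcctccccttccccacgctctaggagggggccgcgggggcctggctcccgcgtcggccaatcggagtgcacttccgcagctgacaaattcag
TGACG occurred in 3 of the 6 member windows, 2 times in Fos (at -129 to -125 and -66 to -62 from the start site) and 1 time each in Fosb (-60 to -56) and Junb (-106 to -102), against 17.7% of all 32817 windows. TGACATCA occurred in Jun alone (-45 to -38), against 2.93% of all windows. TATAAA occurred in Fos alone (-33 to -28), against 12.4%. TGACGTCA (1.55% of all windows), TGACTCA (4.46%) and the CArG box (1.47%), the binding element of serum response factor, had no match in the 6 windows. Sequence beyond these 250 bases was not searched, so a site farther upstream would be missed. The 6 windows include those of Fosl2 and Jund, which are not shown. A match is a description of these letters and not of binding.

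All 7 members passed the filter on low values. Their mean levels in each treatment were above those in blank cells, and the 4 Fos genes and 3 Jun genes differed in how far and how evenly they stood above blank. Fosb and Fosl2 were the 2 members that passed the edgeR test in cells given DNP-HSA, with or without SiO2. In cells given SiO2 alone, Fosl2 was the 1 member that passed in edgeR without a block. Fosb was the 1 that passed there with the libraries paired by number within 2 pairs of groups, and 0 passed with a block over all libraries. DESeq2 called Fosb, Fosl2, Jun and Junb in each of the 3 treatments, and also Fosl1 in SiO2 and in DNP-HSA cells. It called 258, 253 and 444 of all 12862 genes higher in SiO2, DNP-HSA and DNP-HSA+SiO2 cells. Fosl1 entered the test only through the groups where it was higher. Library values below are in the order unnumbered, 1 and 2. In bulk RNA, a change in the number of expressing cells and a change in RNA per cell cannot be told apart. The 3 comparisons against blank share the blank libraries.

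**Figure D1:**
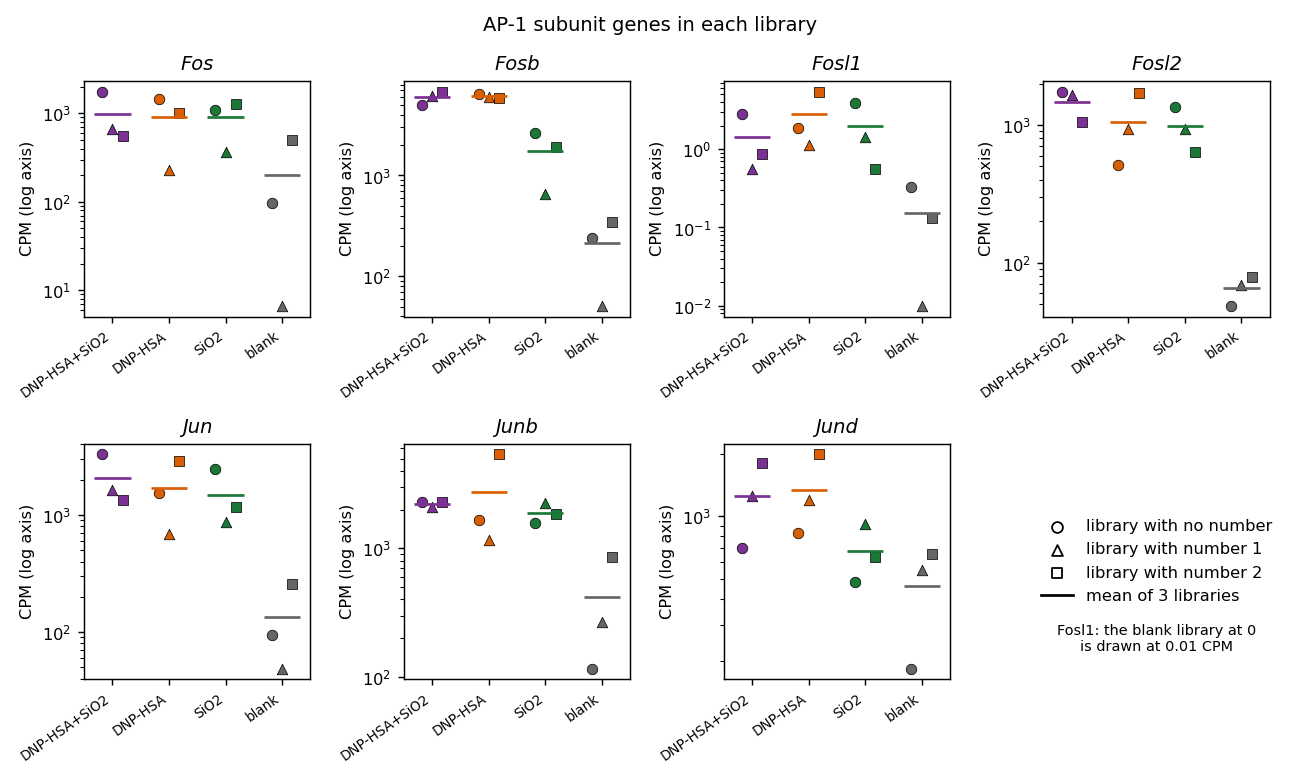
Level of each AP-1 subunit gene (CPM, log axis, a separate scale for each panel) in the 12 libraries by treatment, with symbols for the library number and a bar for the mean of 3 libraries. Fosl2 lies between 48.5 and 78.2 CPM in the blank libraries and at 513 CPM or more in every treated one, whereas Fos spans 6.66 to 499 CPM within the blank group.

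Fosb (ENSMUSG00000003545, chr7:19302696-19310051, minus strand, GRCm38) encodes FosB and its truncated form delta-FosB. It was at 5043, 6199.7 and 6786 CPM in DNP-HSA+SiO2 libraries, at 6377, 6046 and 5878 CPM in DNP-HSA libraries and at 2618, 657 and 1928 CPM in SiO2 libraries, against 239, 50.8 and 346 CPM in blank libraries. The DNP-HSA libraries lay close together and the other groups spread more widely, but no treated library overlapped the blank range. Fosb rose 28.4-fold in DNP-HSA+SiO2 cells (log2 change 4.83, SE 0.71, adjusted p = 0.0201) and 28.8-fold in DNP-HSA cells (4.85, SE 0.71, adjusted p = 0.0279; edgeR quasi-likelihood test, Benjamini-Hochberg adjustment). In SiO2 cells its log2 change was 3.03 (SE 0.65) and did not pass (edgeR adjusted p = 0.128). Leaving out 1 library kept the log2 change within 4.36 to 5.37 in DNP-HSA+SiO2 and 4.38 to 5.40 in DNP-HSA cells but ended some calls. The DNP-HSA+SiO2 call was lost without DNP-HSA+SiO2 library 1 (adjusted p = 0.0592), without the unnumbered blank library (0.126) and without blank library 2 (0.0595). The DNP-HSA call was lost without DNP-HSA library 1 (0.0640) or 2 (0.0833), without the unnumbered blank library (0.168) or blank 2 (0.0783), and without DNP-HSA+SiO2 library 1 (0.0607) or 2 (0.0504), which enter its spread only.

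Fosl2 (ENSMUSG00000029135, chr5:32135801-32157842, plus strand) encodes Fra-2, a Fos protein without the C-terminal transactivation domain of c-Fos. Its level was 1746, 1644 and 1058 CPM in DNP-HSA+SiO2 libraries, 513, 939 and 1708 CPM in DNP-HSA libraries and 1354, 940.3 and 637 CPM in SiO2 libraries, against 48.5, 69.3 and 78.2 CPM in blank libraries. The blank libraries were within 1.61-fold of each other, and all 9 treated libraries lay above them. Fosl2 rose 22.7-fold in DNP-HSA+SiO2 cells (log2 4.50, SE 0.49, edgeR adjusted p = 0.00418), 16.1-fold in DNP-HSA cells (4.01, SE 0.48, adjusted p = 0.0102) and 15.0-fold in SiO2 cells (3.9, SE 0.48, adjusted p = 0.0151). The DNP-HSA+SiO2 call held without any 1 library (adjusted p 0.0026 to 0.0492). The DNP-HSA call was lost without the unnumbered blank library (0.0877), blank 1 (0.103) or blank 2 (0.0653). The SiO2 call was lost without the same 3 in turn (0.141, 0.171 and 0.0688), without the unnumbered SiO2 library (0.0516), and with a replicate block (below).

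Fos (ENSMUSG00000021250, chr12:85473890-85477273, plus strand) encodes c-Fos, the founding subunit and the standard example of an immediate early gene. Its levels were 1759.8, 663 and 562 CPM with DNP-HSA+SiO2, 1457, 228 and 1019.7 CPM with DNP-HSA and 1089.8, 367 and 1288 CPM with SiO2, against 96.7, 6.66 and 499 CPM in blank. The blank library numbered 2 lay above the lowest DNP-HSA and SiO2 libraries. The log2 changes were 2.31 (SE 1.17), 2.17 (SE 1.16) and 2.19 (SE 1.16) in DNP-HSA+SiO2, DNP-HSA and SiO2 cells, with edgeR adjusted p of 0.489, 0.818 and 0.695. Fos thus passed in none of the 3 comparisons. Within the blank group its highest library was 75.0 times its lowest, and on log2(CPM + 1) this spread of 6.03 was reached by 0.0311% of all genes tested.

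Fosl1 (ENSMUSG00000024912, chr19:5447547-5455946, plus strand) encodes Fra-1, known as a late and delayed member of the family in stimulated fibroblasts. It was nearly silent, at 0.565 to 2.81 CPM with DNP-HSA+SiO2, 1.13 to 5.41 CPM with DNP-HSA and 0.551 to 3.94 CPM with SiO2, against 0.0 to 0.327 CPM in blank. No treated library overlapped blank, yet its log2 changes of 3.18 to 4.16 had edgeR adjusted p of 0.303 to 0.407. In DESeq2 it passed in DNP-HSA (adjusted p = 0.00636) and SiO2 cells (0.0334). It reached 1 FPKM in treated libraries alone, so it entered the test through the groups where it was higher. The gene overlaps Ccdc85b on the opposite strand, and held 0 to 366 counts per library where Ccdc85b held 498 to 1201. The library protocol marked strand with dUTP, but whether strand was used in counting is not stated by the labels or the paper's methods. The values of Fosl1 are uncertain for this reason.

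Jun (ENSMUSG00000052684, chr4:95049034-95052222, minus strand, a single exon) encodes c-Jun, the main partner of Fos proteins and a substrate of JNK. It stood at 3286, 1633 and 1333 CPM with DNP-HSA+SiO2, at 1542, 681 and 2909.8 CPM with DNP-HSA and at 2445, 875 and 1158 CPM with SiO2, against 94.7, 48.8 and 259 CPM in blank. Every treated library was above every blank one. The log2 changes of 3.96 (SE 0.77), 3.67 (SE 0.76) and 3.48 (SE 0.75) came close to the threshold of 0.05 without passing it, at edgeR adjusted p of 0.0507 in DNP-HSA+SiO2, 0.0962 in DNP-HSA and 0.128 in SiO2 cells. The DNP-HSA+SiO2 difference passed in 11 of 24 alternative fits, with adjusted p of 0.0488 with DESeq2 size factors in edgeR, 0.0412 with library totals, 0.0493 without the robust setting and also with counts divided by 4, 0.0280 with a replicate block over all libraries, 1.89e-07 in DESeq2 and 0.0141 and 0.0135 in limma. The DNP-HSA difference passed in DESeq2 (2.85e-06), in limma (0.0345 and 0.0301) and with that block (0.0426), and the SiO2 difference in DESeq2 (1.45e-05) and in limma on log2(FPKM + 0.1) (0.0425). With 1 library left out the DNP-HSA+SiO2 difference passed in 3 of 12 fits (adjusted p 0.0305 to 0.25), namely without DNP-HSA+SiO2 library 2 (0.0464), DNP-HSA library 2 (0.0444) or the unnumbered SiO2 library (0.0305). The antisense gene Junos held at most 0.588% of the count of Jun.

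Junb (ENSMUSG00000052837, chr8:84976910-84978718, minus strand, a single exon) encodes JunB, a weaker activator than c-Jun on single AP-1 sites. Levels were 2285, 2103 and 2279 CPM with DNP-HSA+SiO2, 1649.8, 1167 and 5391 CPM with DNP-HSA and 1581, 2273 and 1853 CPM with SiO2, against 116, 269 and 859 CPM in blank. The 3 DNP-HSA+SiO2 libraries were within 1.09-fold of each other, while the highest DNP-HSA library was 4.62 times the lowest. Again no treated library fell into the blank range, but the log2 changes of 2.42 (SE 0.71), 2.72 (SE 0.72) and 2.20 (SE 0.71) in DNP-HSA+SiO2, DNP-HSA and SiO2 cells did not pass (edgeR adjusted p = 0.181, 0.204 and 0.383). In DESeq2 they did, at adjusted p of 0.00667, 0.00216 and 0.0342.

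Jund (ENSMUSG00000071076, chr8:70698949-70700616, plus strand, a single exon) encodes JunD, which many resting cells make steadily. Its values were 701, 1248 and 1812 CPM with DNP-HSA+SiO2, 827, 1203 and 1986 CPM with DNP-HSA and 483, 919.9 and 634 CPM with SiO2, against 185, 549 and 659 CPM in blank. It was the member nearest to blank, and its SiO2 and blank libraries overlapped. The log2 changes were 1.43 (SE 0.52), 1.53 (SE 0.52) and 0.55 (SE 0.51) in DNP-HSA+SiO2, DNP-HSA and SiO2 cells, with edgeR adjusted p of 0.281, 0.412 and 0.881. The opposite-strand gene Gm11175 held at most 0.527% of its count.

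**Figure D2:**
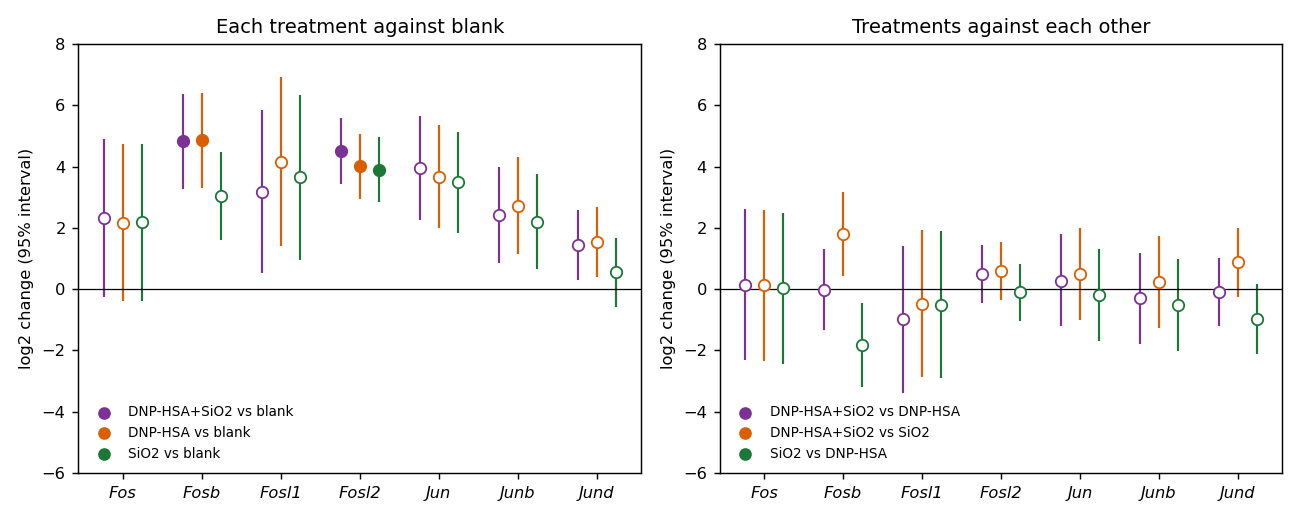
Log2 change of each member with its 95% interval from edgeR, on the left for each treatment against blank and on the right for the treatments against each other, with filled points for an adjusted p under 0.05. Filled points are Fosb and Fosl2 in DNP-HSA+SiO2 and DNP-HSA cells and Fosl2 in SiO2 cells, and none lies on the right.

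Counted over the members, 2 of 7 rose in DNP-HSA+SiO2 cells, where 0.552% of all 12862 genes tested did, and 2 of 7 rose in DNP-HSA cells, where 0.21% of genes did. In SiO2 cells 1 of 7 rose, where 0.0622% of genes did, and no member fell in any of these comparisons. At an unadjusted p under 0.05 there were 6, 6 and 5 members against blank, where 12%, 7.38% and 8.03% of all genes reached it. The libraries of 7 of 7 members lay wholly above blank in DNP-HSA+SiO2 cells (8.58% of all genes), of 6 of 7 in DNP-HSA cells (6.94%, the exception being Fos) and of 5 of 7 in SiO2 cells (7.85%, the exceptions being Fos and Jund). The median log2 change of the members was 3.18, 3.67 and 3.03 in the 3 comparisons, against medians of -0.01, 0.01 and -0.01 over all genes. These counts and medians include Fosl1, whose place above blank follows from the filter. Its coding row alone did not lie wholly above blank. Over the 6 members that reached 1 FPKM in every blank library, a restriction chosen after seeing the data, 5, 5 and 4 had an unadjusted p under 0.05, 6, 5 and 4 lay wholly above blank, and the medians were 3.19, 3.2 and 2.61.

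The SiO2 and blank libraries of equal number deviated together across genes, so the numbers were treated as pairs in that comparison. With a replicate block nested within 2 pairs of groups, Fosl2 no longer passed (log2 3.86, edgeR adjusted p = 0.157), whereas Fosb did (log2 3.21, adjusted p = 0.0490). With the block over all libraries neither passed (edgeR adjusted p = 0.0618 for Fosl2 and 0.118 for Fosb). Number by number, the SiO2 level of Fosl2 was 27.9, 13.6 and 8.14 times that of blank, and that of Fosb was 11, 12.9 and 5.57 times. For Jun the ratios were 25.8, 17.9 and 4.48, for Junb 13.6, 8.44 and 2.16, and for Fos 11.3, 55.1 and 2.58. For each of these 5 genes the lowest ratio belonged to the libraries numbered 2, where the blank level of each was the highest of its group. Jund gave 2.62, 1.68 and 0.963, so that its pair numbered 2 did not differ upwards. Without the 4 unnumbered libraries, 0 of 7 members passed in SiO2 cells (Fosl2 log2 3.42, adjusted p = 0.220), while Fosl2 still passed in DNP-HSA+SiO2 cells (adjusted p = 0.0333) and in DNP-HSA cells (adjusted p = 0.0261) and Fosb passed in neither (adjusted p = 0.151 and 0.128).

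**Figure D3:**
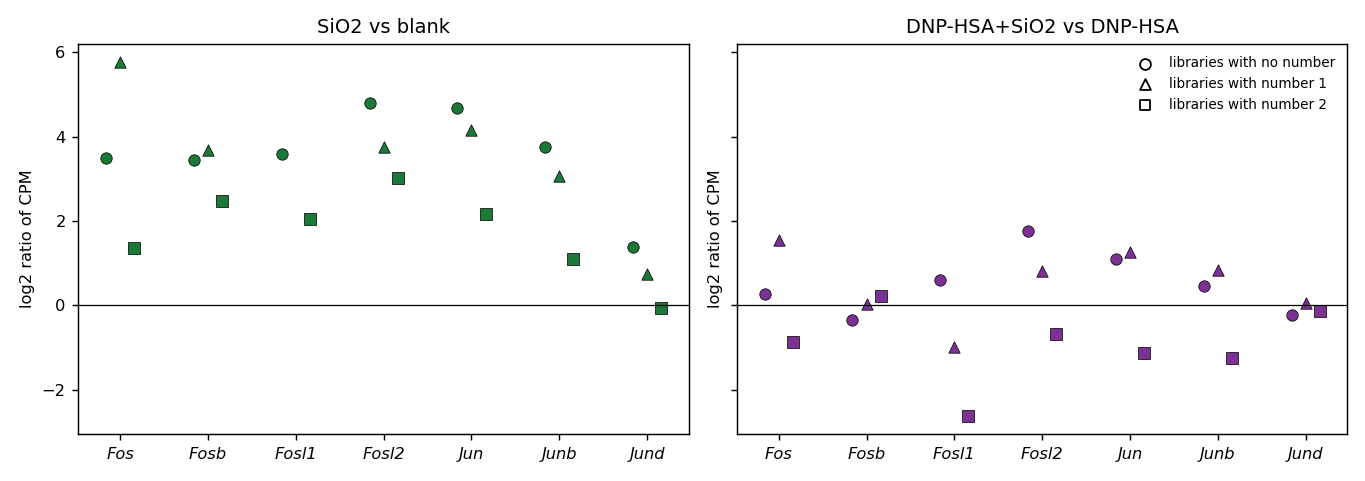
Log2 ratio of CPM between libraries of equal number, for SiO2 over blank (left) and DNP-HSA+SiO2 over DNP-HSA (right), with 1 point for each number (Fosl1 has no ratio for number 1 on the left because the blank value was 0). On the left all points but that of Jund number 2 are above 0, and on the right each of the 7 genes has points on both sides of 0.

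Whether SiO2 added to the response to DNP-HSA was addressed by DNP-HSA+SiO2 against DNP-HSA. No member passed (0 of 7, with 0.0% of all genes called), and none reached an unadjusted p under 0.05 in edgeR, where 83 of all genes (0.645%) did. DESeq2 and limma also called 0 of 7. The largest estimates were 0.49 for Fosl2 (95% interval -0.45 to 1.44) and -0.98 for Fosl1 (-3.39 to 1.42). For Fosb the log2 difference was -0.02 with an interval of -1.35 to 1.3, and with the libraries paired by number, as they were for this comparison too, it was -0.03 with an interval of -0.66 to 0.60. The direction also differed between pairs. DNP-HSA+SiO2 levels of Jun were 2.13, 2.40 and 0.458 times those of DNP-HSA for the unnumbered, 1 and 2 libraries, those of Junb were 1.39, 1.80 and 0.423 times, and those of Fosl2 were 3.40, 1.75 and 0.619 times. The libraries numbered 2 thus ran opposite to the others for these 3 genes.

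Fosb was the member that separated the DNP-HSA groups from SiO2 alone. Its log2 difference was 1.79 (SE 0.62, interval 0.43 to 3.16) for DNP-HSA+SiO2 against SiO2 and -1.81 (SE 0.62, interval -3.18 to -0.45) for SiO2 against DNP-HSA. The libraries did not overlap in either comparison, which held for 1 of 7 members where 1.37% and 1.70% of all genes behaved so. Neither difference passed after adjustment (edgeR adjusted p = 1.0 in both, unadjusted p = 0.0147 and 0.0138), and 0 of 7 members passed in either, with 0.0% of all genes called in both and 139 and 158 genes at an unadjusted p under 0.05. DESeq2 and limma called 0 of 7 in both as well. Jund had estimates of 0.88 (interval -0.25 to 2.01) and -0.98 (interval -2.11 to 0.15) in the same comparisons. The other 5 members ranged from -0.48 to 0.60 against SiO2.

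The interaction compares the change that SiO2 gave over DNP-HSA with the change it gave over blank. Its estimate was negative for 7 of 7 members, at -3.41 for Fosl2 (SE 0.62), -3.05 for Fosb (SE 0.87), -3.19 for Jun (SE 0.99) and -0.64 for Jund (SE 0.72), so the estimated difference that SiO2 made was smaller over DNP-HSA than over blank. None passed (Fosl2 edgeR adjusted p = 0.356, the other 6 at 1.0), where 0.0233% of all genes did. Unadjusted p under 0.05 was reached by 5 of 7 members and 2.08% of all genes. Limma called 0 members. DESeq2 called Fosl2, where it called 2 of all 12862 genes higher and 34 lower. The median estimate of the members was -3.05, against -0.0 over all genes, and -2.78 without Fosl1.

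Set on the length-based scale, the order of the members differed between groups. Fosb had the highest mean FPKM in DNP-HSA+SiO2 cells (1509, 36% of the 7 genes' sum) and in DNP-HSA cells (1621, 35.9%), followed in both by Junb, Jund and Jun. Junb led in SiO2 cells at 909.6 FPKM (34.7%), with Fosb at 447 FPKM, Fos at 391, Jun at 387 and Jund at 355, which lay close relative to their spread. Jund led in blank cells at 281 FPKM (37.9%) with Junb at 229 FPKM (30.9%), and Fosb made up 8.78% there. Fosl2 and Fosl1 were the 2 lowest in every group. These are orders of means, and in DNP-HSA library 2 Junb (2350.2 FPKM) lay above Fosb (1419 FPKM), as in blank library 2 Junb (465 FPKM) lay above Jund (387 FPKM). The summed FPKM of the 7 genes was 3815.9 to 4801.9 in DNP-HSA+SiO2, 3179.6 to 6025.7 in DNP-HSA and 2397.3 to 2804.8 in SiO2 libraries, against 361.0, 533.9 and 1325.4 in blank libraries. The 3 blank libraries differed among themselves by more than the SiO2 libraries did. The blank library numbered 2 was the highest of its group for Fos, Fosb, Fosl2, Jun, Junb and Jund.

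Fosb had 7 listed isoforms, of which 6 were coding. They divide on a stretch of 140 bases in the last coding exon (chr7:19305007-19305146, minus strand, GRCm38), which is an exon part in full-length FosB and an intron in delta-FosB. Its removal shifts the reading frame and ends the protein early, and delta-FosB lacks the C-terminal transactivation domain and is known in the brain as a long-lived form. The stretch is shown in capitals with 20 bases of exon on each side, because the isoform shares below turn on it.
Fosb segment: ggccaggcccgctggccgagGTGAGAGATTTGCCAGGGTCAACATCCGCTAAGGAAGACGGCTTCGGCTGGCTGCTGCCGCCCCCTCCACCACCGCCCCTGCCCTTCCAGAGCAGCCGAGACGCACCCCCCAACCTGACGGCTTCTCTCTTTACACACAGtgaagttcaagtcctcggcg
The segment was kept in Fosb-201 (338 codons), Fosb-202, Fosb-203 and Fosb-205 (299 codons) and spliced out in Fosb-206 (237 codons) and Fosb-207 (201 codons), while Fosb-204 is a retained intron. Of the coding Fosb counts, the isoforms without the segment took 47.5%, 48.3% and 53.6% in DNP-HSA+SiO2 libraries, 50.0%, 48.7% and 54.6% in DNP-HSA libraries and 43.1%, 58.8% and 77.5% in SiO2 libraries, against 36.6%, 15.7% and 70.3% in blank libraries. By count, both DNP-HSA groups held nearly equal shares of the 2 forms in every library. By FPKM, the isoforms without the segment took 53.9% to 59.4% in DNP-HSA+SiO2 and 54.8% to 59.7% in DNP-HSA libraries. They took 50.4% to 82.6% in SiO2 and 21.1% to 75.9% in blank libraries by FPKM. The SiO2 and blank groups overlapped each other and the DNP-HSA groups. The mean shares by count were 49.8% ± 3.32 for DNP-HSA+SiO2, 51.1% ± 3.10 for DNP-HSA and 59.8% ± 17.2 for SiO2, against 40.9% ± 27.5 for blank (SD, n = 3 each). Number by number, the SiO2 share was 6.5, 43.1 and 7.2 points above that of blank, and the DNP-HSA+SiO2 share was lower than that of DNP-HSA by 2.5, 0.4 and 1.0 points. Both differences kept 1 direction in 3 of 3 pairs, with a p of 0.25 (exact sign-flip permutation test, two-sided, chosen after seeing the data), the smallest that 3 pairs can give. The test can therefore decide neither difference. In the pair with 43.1 points, Fosb-201 took 80.3% of the Fosb counts of blank library 1.

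**Figure D4:**
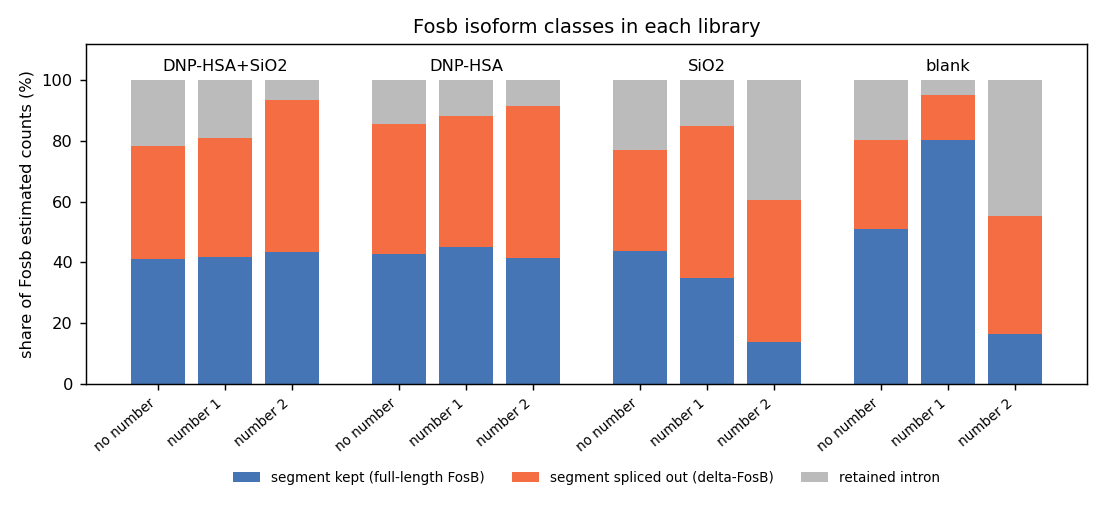
Share of the estimated Fosb counts (%) in each library taken by isoforms that keep the 140-base segment, isoforms that splice it out, and the retained-intron isoform. The spliced-out isoforms took 47.5% to 54.6% of the coding counts in the 6 DNP-HSA and DNP-HSA+SiO2 libraries and 15.7% to 77.5% in the 6 SiO2 and blank libraries.

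The retained-intron row took 6.51% to 21.7% of Fosb counts in DNP-HSA+SiO2, 8.45% to 14.3% in DNP-HSA and 15.1% to 39.4% in SiO2 libraries, against 4.73% to 44.6% in blank libraries. The highest SiO2 and blank values both came from the libraries numbered 2. The assignment of reads among the full-length isoforms changed between libraries. Fosb-205 carried 27.3% to 50.0% of all Fosb counts in 9 libraries and was listed at 0 in the SiO2 library 2 and the blank libraries 1 and 2, where Fosb-201 held 16218, 2905 and 3864 counts. In those 3 libraries the full-length share therefore rests on Fosb-201. Of the isoforms without the segment, Fosb-206 is listed with 1090 bases and Fosb-207 with 3523 bases, and Fosb-207 held most of their counts.

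The other members had 1 coding isoform each. Fos-201 took 97.7% to 98.9% of Fos counts in DNP-HSA+SiO2, 96.6% to 99.4% in DNP-HSA and 90.0% to 98.3% in SiO2 libraries, against 80.2% to 93.4% in blank libraries. The rest was mostly Fos-203, a processed transcript. Fosl2-201 held 96.7% to 99.4% of Fosl2 counts over the 12 libraries. Jun, Junb and Jund had a single row each.

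Across the 12 libraries the pattern of Fosl2 was most like those of Nr4a2 (Pearson r = 0.99 of log2(CPM + 1)), Dusp4 (0.986) and Nr4a3 (0.983), which encode orphan nuclear receptors and a MAP kinase phosphatase. Nr4a2 spanned 852 to 1612 CPM in DNP-HSA+SiO2, 528 to 1441 CPM in DNP-HSA and 456 to 1189.7 CPM in SiO2 libraries, against 7.40 to 13.6 CPM in blank libraries. Fosb was most like Per1 (0.960), Cd69 (0.957) and Klf6 (0.950). Fos was most like Zfp36 (0.947), Dusp1 (0.941) and Egr1 (0.926), all immediate early genes. Jun was nearest to Ier2 (0.974), Rgs2 (0.973) and Dusp6 (0.970), Junb to Ier2 (0.950), Zfp36l2 (0.918) and Pim3 (0.917), and Jund to Relb (0.955), Midn (0.945) and Ppp1r15b (0.933). For Fosl1, with its low counts, the nearest were Ensa (0.960), Ube2s (0.915) and Id2 (0.914). Among the members, r was highest for Fosl2 with Jun (0.928) and lowest for Fos with Jund (0.346). These values describe 12 libraries that share treatments and scaling, and they were not tested.

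Other basic leucine zipper genes that can pair with AP-1 subunits were read for comparison. Of 12 listed, 8 were tested, and 1 rose in DNP-HSA+SiO2 cells and 0 in the other 2 treatments against blank, where 0.552%, 0.21% and 0.0622% of all genes rose in DNP-HSA+SiO2, DNP-HSA and SiO2 cells. The called gene was Maff, which encodes a small Maf protein without a transactivation domain, at 92.1 ± 64.8 CPM in DNP-HSA+SiO2 and 1.64 ± 1.03 CPM in blank cells (SD, n = 3 each; log2 5.82, SE 1.0, edgeR adjusted p = 0.0338). In the other treatments it was of similar size without passing, at 60.9 ± 63.2 CPM in DNP-HSA cells (log2 5.22, SE 0.97, edgeR adjusted p = 0.0647) and 77.7 ± 53.6 CPM in SiO2 cells (log2 5.57, SE 0.98, adjusted p = 0.0738; SD, n = 3 each). The blank libraries of Maff lay at 0.605 to 2.67 CPM, so the treated libraries may have carried it past the filter on low values. Whether they did was not tested. Atf3, a stress-induced repressor, was at 75.2 to 1633.8 CPM with DNP-HSA+SiO2, 115 to 651 CPM with DNP-HSA and 125 to 1324 CPM with SiO2, against 1.44 to 6.54 CPM in blank, and did not pass (edgeR adjusted p = 0.0611, 0.140 and 0.128). The list's median log2 change was 0.34, 0.26 and 0.36 in DNP-HSA+SiO2, DNP-HSA and SiO2 cells, against -0.01, 0.01 and -0.01 over all genes. In each treatment 3 of its 8 genes reached an unadjusted p under 0.05, against 12%, 7.38% and 8.03% of all genes. The 3 were Maff, Atf3 and Mafg, of which Maff and Atf3 were low in blank.

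Of the serum response and CRE factors that act on the Fos and Jun promoters, 7 of 10 were tested and 0 passed in edgeR against blank. An unadjusted p under 0.05 was reached by 1, 1 and 0 in DNP-HSA+SiO2, DNP-HSA and SiO2 cells, where 12%, 7.38% and 8.03% of all genes reached it. The 1 was Srf, the serum response factor, with log2 changes of 0.95 (SE 0.42) in DNP-HSA+SiO2 and 0.97 (SE 0.42) in DNP-HSA cells. The same shares of all genes apply to the kinases and turnover genes below. Of the kinases that act on Fos and Jun, 12 of 13 were tested and 0 passed in edgeR, with medians of 0.07, 0.04 and -0.04 in DNP-HSA+SiO2, DNP-HSA and SiO2 cells and at most 2 at an unadjusted p under 0.05. For turnover of Fos and Jun proteins 8 symbols were listed, of which Cop1 and Rfwd2 name the same gene. Of the listed symbols 7 were tested and 0 passed, with 1 gene at an unadjusted p under 0.05 in each treatment. That gene was Trib1, which encodes an adaptor of the COP1 ubiquitin ligase, with log2 changes of 6.96 (SE 1.41), 6.38 (SE 1.37) and 6.74 (SE 1.40) in DNP-HSA+SiO2, DNP-HSA and SiO2 cells (edgeR adjusted p = 0.0558, 0.118 and 0.124). RNA levels do not report the phosphorylation by which kinases act on Fos and Jun proteins.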

How the data were processed

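Paired reads of 150 bases were sequenced from 12 BMMC libraries. Tools listed by the submitters' processing notes, without roles, are StringTie 1.3.4d, HISAT2 2.0.4, cutadapt 1.9, edgeR and DESeq2. For the build, nothing is stated in the sources used here. The coordinates of all 19 member isoforms equal those of GENCODE M21 (GRCm38). The authors deposited an FPKM value and an estimated count per isoform and library. Within a library the deposited estimated counts equal FPKM times length times a constant to within 0.1422% for 99% of values, so the counts are model estimates with no normalization between libraries.

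Estimated counts were summed per gene identifier, and 12862 genes that reached 1 FPKM in 3 or more libraries entered edgeR 4.0.16 (quasi-likelihood test, TMM scaling, trended dispersion, robust). All 12 libraries entered 1 model without a replicate block. The p-values were adjusted by the Benjamini-Hochberg method over all genes of each comparison at a threshold of 0.05. The SE of a log2 change was derived from the F statistic. DESeq2 1.42.0, limma 3.58.1 on log2(FPKM + 1) and on log2(FPKM + 0.1), other scalings and filters, counts divided by 4, replicate blocks and leaving out libraries were alternatives. Libraries of equal number were taken as pairs where their residuals from the means of the groups correlated across genes at over 0.1 in every pair. This held for SiO2 and blank (0.616, 0.641 and 0.614) and for DNP-HSA+SiO2 and DNP-HSA (0.493, 0.651 and 0.259). Elsewhere only the unnumbered libraries correlated clearly, at 0.753 for DNP-HSA and blank and 0.614 for DNP-HSA+SiO2 and blank. Their values were 0.827 for DNP-HSA+SiO2 and SiO2 and 0.499 for SiO2 and DNP-HSA. The numbered libraries lay between -0.276 and 0.186 in these comparisons. The fits were tested on simulated counts with a common dispersion and no structure between libraries. That test does not show how they perform with the spread between libraries seen here. The named genes are the 7 members, the called members of 4 companion lists with up to 4 others of each, and the 3 genes most like each member. The genes that overlap a member were named for the reads they may share. Values of 1 listed gene are not reported here. Members and lists were chosen with earlier results of these data known. The clause on edgeR in the plan was written for counts, and the deposited counts are estimates.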

Additional observations from a re-analysis of the deposited data

How the results depend on the processing

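Against blank, every member kept a positive log2 change under every alternative. The count of members called was less stable. In SiO2 cells it was 5 of 7 with the DESeq2 Wald test, 2 with limma on log2(FPKM + 0.1), 0 with the replicate block over all libraries and 0 without the 4 unnumbered libraries, and 0 to 1 with 1 library left out. In DNP-HSA cells it was 5 with DESeq2, 1 without the unnumbered libraries and 0 to 2 with 1 library left out. In DNP-HSA+SiO2 cells it was 4, 1 and 1 to 3 in the same 3 settings. The 5 called by DESeq2 in SiO2 and in DNP-HSA cells include Fosl1, whose place above blank follows from the filter. For the interaction DESeq2 called 1 of 7 members, where it called 2 of all 12862 genes higher and 34 lower. With the block over all libraries, Jun also passed in DNP-HSA (edgeR adjusted p = 0.0426) and DNP-HSA+SiO2 cells (0.0280). In those 2 comparisons with blank only the unnumbered libraries deviated together across genes. The nested replicate block was fitted for SiO2 against blank, DNP-HSA+SiO2 against DNP-HSA and the interaction alone. Within these it changed no other call than those of Fosl2 and Fosb in SiO2 cells. The calls of the DNP-HSA groups against blank were not tested with it. By FPKM in place of counts, the mean spliced-out share of Fosb was 56.0% in DNP-HSA+SiO2, 57.2% in DNP-HSA, 65.7% in SiO2 and 46.9% in blank cells.

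Over all genes, 0 to 258 were called higher in SiO2, 2 to 253 in DNP-HSA and 7 to 444 in DNP-HSA+SiO2 cells, the highest counts by DESeq2. With library totals alone, the median of all genes shifted to -0.27, -0.25 and -0.35 in SiO2, DNP-HSA and DNP-HSA+SiO2 cells.

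Estimates near 0 changed sign between the treatments. For DNP-HSA+SiO2 against DNP-HSA, Fos was -0.03 with library totals and -0.03 without the unnumbered libraries, Junb was 0.04 in both replicate blocks, and Fosb was 0.12 and Jun -0.28 without the unnumbered libraries. With 1 library left out, Fos ranged from -0.53 to 0.67, Fosb from -0.12 to 0.11, Jun from -0.19 to 0.91, Junb from -0.67 to 0.67 and Jund from -0.46 to 0.31. For DNP-HSA+SiO2 against SiO2, Fos was -0.01 with library totals, -0.05 with limma at both pseudocounts and -0.42 without the unnumbered libraries. With 1 library left out it ranged from -0.55 to 0.45, and Fosl1 from -1.42 to 0.49. For SiO2 against DNP-HSA, Fos was -0.02 with library totals, -0.0 with filterByExpr and -0.01 with no filter, and Fosl2 was 0.0 with limma at both pseudocounts. With 1 library left out, Fos ranged from -0.43 to 0.55, Fosl1 from -1.50 to 0.39, Fosl2 from -0.44 to 0.42, Jun from -0.75 to 0.43 and Junb from -0.90 to 0.44. No cause of these differences was tested. With 3 libraries a group and Fos spread 75.0-fold in blank, a change of Fos of the size estimated could not be told from the spread.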
